A study of Mus musculus with 2 samples.

Results

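The D cyclins, their kinase Cdk4 and the inhibitors of the INK4 and CIP/KIP families are described here in apoptotic osteoblasts from old and from young mice. The set holds 10 of the 55487 genes in the deposited table: Ccnd1, Ccnd2 and Ccnd3, then Cdk4, the CIP/KIP genes Cdkn1b and Cdkn1c, and the INK4 genes Cdkn2a, Cdkn2b, Cdkn2c and Cdkn2d. They were chosen by name for their role in the cell cycle, with earlier results of these data known, and each was found by its Ensembl identifier. Of the 10, 7 averaged 1 FPKM or more across the libraries, Cdkn1c had reads below that level, and Cdkn2a and Cdkn2b were listed at 0. FPKM is a level per length of the gene and per depth of the library. The length that fits the values is the mean over all annotated transcripts of a gene, whichever of them the cells made. Levels of different genes are set side by side below and depend on that length.

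Osteoblasts are the bone-forming cells. Per the labels, bone pieces were put in culture, and the cells that stuck were taken through 3 passages to give marrow stromal stem cells. These were turned into osteoblasts by 3 days in osteogenic medium. Both groups were then made apoptotic with 0.5 h of ultraviolet light, so no library of untreated living cells stands beside them. There was 1 library from old mice, with a treatment label of day 5, and 1 from young mice, with a label of day 0; age and label day therefore cannot be told apart. Neither age in months, strain, nor the number of animals or cultures behind a library is given. With 1 library per age group, no difference has a replicate check and no test was run.

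Cyclin D proteins, induced by growth factors, join Cdk4 or Cdk6 to form a kinase that phosphorylates the retinoblastoma protein and frees E2F factors to switch on genes of DNA synthesis. INK4 proteins bind Cdk4 and Cdk6 and keep the cyclin out. CIP/KIP proteins block the cyclin E and cyclin A kinases that act later, and also help cyclin D and Cdk4 to assemble. Cdkn2a yields a second protein from another reading frame, ARF, which holds back the p53 ligase Mdm2. In many tissues Cdkn2a mRNA increases with age and with cell senescence, and it is widely used as a senescence marker.

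Some of these genes are shown by the bases before their start. Sequences are from RefSeq on GRCm38.p6 and run 5′ to 3′ on the gene's own strand. Bases within annotated exons were left off. Cdk4 is shown because it had the highest FPKM of the set. Capitals mark its E-boxes (CACGTG, the same on both strands), the sequence bound by Myc and its relatives. The 2 starts of Cdkn2a and the start of Cdkn2b are shown because both genes were listed at 0. Capitals there mark a GC box (GGGCGG or its complement) in Cdkn2a and a cyclic AMP response element (TGACGTCA, the same on both strands) in Cdkn2b. The second Cdkn2a window, which holds no GC box, lies in the first intron of the ARF transcript.
Cdk4, chr10:127063285-127063533, plus strand: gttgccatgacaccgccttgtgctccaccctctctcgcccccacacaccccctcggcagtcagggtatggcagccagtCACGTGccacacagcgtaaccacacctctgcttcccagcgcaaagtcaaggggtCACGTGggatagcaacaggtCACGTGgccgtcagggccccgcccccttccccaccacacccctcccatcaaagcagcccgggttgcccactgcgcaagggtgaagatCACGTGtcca
Cdkn2a, ARF start, chr4:89294654-89294869, minus strand: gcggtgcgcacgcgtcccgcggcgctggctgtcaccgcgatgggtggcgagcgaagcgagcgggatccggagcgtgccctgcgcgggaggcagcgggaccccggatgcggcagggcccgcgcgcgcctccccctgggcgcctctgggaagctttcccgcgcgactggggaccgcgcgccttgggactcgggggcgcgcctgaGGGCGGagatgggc
Cdkn2a, p16 start, chr4:89282193-89282442, minus strand: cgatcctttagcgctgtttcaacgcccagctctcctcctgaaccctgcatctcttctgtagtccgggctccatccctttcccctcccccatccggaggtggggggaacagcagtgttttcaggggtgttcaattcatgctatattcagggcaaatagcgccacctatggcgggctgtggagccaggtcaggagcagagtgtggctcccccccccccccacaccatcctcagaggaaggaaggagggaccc
Cdkn2b, chr4:89311040-89311282, minus strand: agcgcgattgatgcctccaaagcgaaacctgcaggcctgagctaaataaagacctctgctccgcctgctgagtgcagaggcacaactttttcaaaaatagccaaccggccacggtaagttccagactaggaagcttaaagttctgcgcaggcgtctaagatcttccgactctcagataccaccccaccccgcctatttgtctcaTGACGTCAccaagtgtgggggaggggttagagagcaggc

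The Cdk4 window held 4 E-boxes in 249 bases. At least 1 E-box was present in 1970 of the 32851 windows of that length, and at least 4 were present in 7 windows, or 0.0213%. A cyclic AMP response element was in 1.48% of windows as long as that of Cdkn2b, and a GC box in 27.9% of windows as long as that of the ARF start. These matches describe the letters and were not tested as binding sites.

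The old library held 18114336 reads and the young library 16333396, as worked out from steps in the FPKM values. Brackets below hold 95% intervals for counting error alone, around a level (exact Poisson) or around an FPKM ratio of old over young (exact Clopper-Pearson). Log2 ratios are of FPKM + 1 and understate differences of low genes. Among osteoblast markers 9 of 10 averaged 1 FPKM or more, with Col1a1, the main collagen of bone, at 6788 FPKM in the old and 8568 FPKM in the young library. The osteocalcin gene Bglap was at 0.84 FPKM in the old and 0.46 FPKM in the young library. The markers Alpl (3.28 and 2.78 FPKM, from 47 and 36 reads) and Ibsp (5.90 and 6.31 FPKM) were low as well. Markers of the list differed in both directions: Spp1, which encodes osteopontin, was at 1732 FPKM in the old and 224 FPKM in the young library, Dmp1, a marker of late osteoblasts and osteocytes, at 4.85 and 0.377 FPKM, and Sp7, the osteoblast transcription factor osterix, at 28.9 and 55.5 FPKM. The part of these marker differences in the values of the cell-cycle genes was not tested. The 8 leukocyte markers summed to 23.1 FPKM in the old and 25.9 FPKM in the young library, most of it from Lyz2 (18.4 and 21.3 FPKM), and the pan-leukocyte gene Ptprc was listed at 0 in the old and was at 0.02 FPKM in the young. Summed levels in the old and young libraries were 0.323 and 0.357 FPKM for 4 endothelial markers, 0.0925 and 0.205 FPKM for 4 erythroid markers and 0.356 and 0.0524 FPKM for 4 adipocyte markers. Of 4 chondrocyte markers, Sox9 and Col2a1 gave nearly all of 97.8 and 98.2 FPKM, while Acan, the cartilage proteoglycan aggrecan, was listed at 0. What other cell types add to the values of the cell-cycle genes was not tested.

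In the old library Ccnd1 was higher, Ccnd3 and Cdk4 were slightly higher and Ccnd2 was level. Of the 3 measured inhibitors Cdkn1b and Cdkn2c were slightly lower and Cdkn2d was lower, all within 1.5-fold. Calls at 2-fold and 1.5-fold are on the FPKM + 1 scale. None of the 7 measured genes differed by 2-fold, a size reached by 2.84% of the 12561 genes averaging 1 FPKM or more (1.97% higher and 0.868% lower). At 1.5-fold 1 of 7 was higher and none lower, against 9.98% of all genes, 5.52% higher and 4.47% lower, and 1 gene is too few to set the group apart from that background. The median log2 ratio of the 7 genes was 0.01, and that of all genes tested was −0.07. In bulk RNA, fewer cells that express a gene and less of its RNA per cell cannot be told apart.

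**Figure D1:**
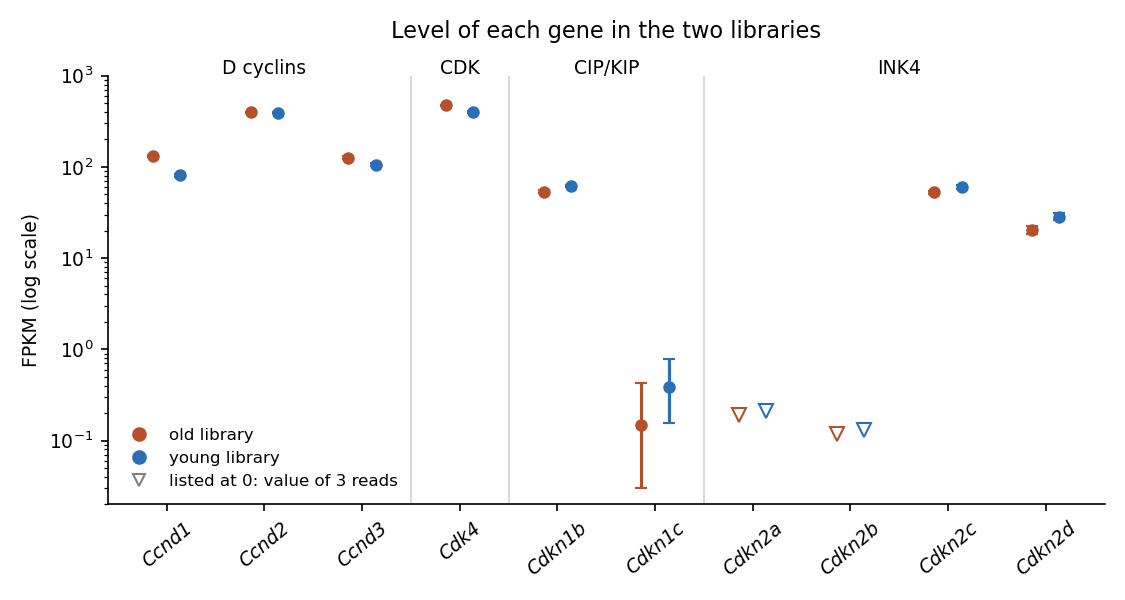
Level of each gene in FPKM on a log scale in the old library (left of each pair) and the young library. Bars are 95% counting intervals and open triangles mark genes listed at 0, drawn at the value of 3 reads. Cdk4 and Ccnd2 lie highest (472 FPKM in the old and 403 FPKM in the young library for Cdk4, 397 and 395 FPKM for Ccnd2), and Cdkn1c, Cdkn2a and Cdkn2b lie below 1 FPKM in both libraries.

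Ccnd1 encodes cyclin D1, the D cyclin most often linked to Wnt and growth factor signals, and it differed most among the 7 genes. Ccnd1 (ENSMUSG00000070348, chromosome 7, 144929931 to 144939925, GRCm38, minus strand) was at 133 FPKM in the old library, from 4794 reads, against 81.0 FPKM in the young, from 2637 reads. The ratio was 1.64 [1.56 to 1.72] and the log2 ratio 0.71, rank 528 of 12561 genes from the top. The levels of the libraries, 129 to 137 FPKM in the old and 77.9 to 84.1 FPKM in the young, were farther apart than counting error. Its last exon runs into that of LTO1, a gene on the other strand, which covers 23.4% of the exon bases of Ccnd1. LTO1 itself was at 9.65 FPKM in the old and 10.5 FPKM in the young library, a ratio of 0.920 [0.767 to 1.10].

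Ccnd2, which encodes cyclin D2, had the highest FPKM of the D cyclins and was level between the libraries. It lies on chromosome 6 (ENSMUSG00000000184, 127125162 to 127152193, minus strand) and was at 397 FPKM in the old library and 395 FPKM in the young, from 11799 and 10584 reads. The interval of its ratio, 1.01 [0.979 to 1.03], holds an even ratio and is narrow, so a difference of more than 1.03-fold higher in the old library lies outside counting error. Exons of 9330179D12Rik and Gm43126 cover 7.86% of the exon bases of Ccnd2.

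Ccnd3 encodes cyclin D3, the third member, known for its role in maturing blood and muscle cells. Ccnd3 (ENSMUSG00000034165, chromosome 17, 47505051 to 47599691, plus strand) was at 126 FPKM in the old and 106 FPKM in the young library, a ratio of 1.19 [1.13 to 1.26] and a log2 ratio of 0.25. Part of its transcripts, 12.5% of 50-base words, is also found in transcripts of other genes, a pseudogene of Ccnd3 among them. Exons of Bysl cover 4.11% of the exon bases of Ccnd3.

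Added up, D cyclin mRNA came to 657 FPKM in the old and 582 FPKM in the young library, a ratio of 1.13. Ccnd1 made up 20.2% of this sum in the old library and 13.9% in the young, Ccnd2 60.5% and 67.9%, and Ccnd3 19.3% and 18.2%. The FPKM of Ccnd2 was thus 2.99 times that of Ccnd1 in the old library and 4.88 times in the young. In the old library the intervals of Ccnd1 and Ccnd3 overlapped (129 to 137 and 122 to 131 FPKM), and the order of these genes was not tested. In the young library Ccnd1 lay below Ccnd3 (77.9 to 84.1 against 101 to 111 FPKM).

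**Figure D2:**
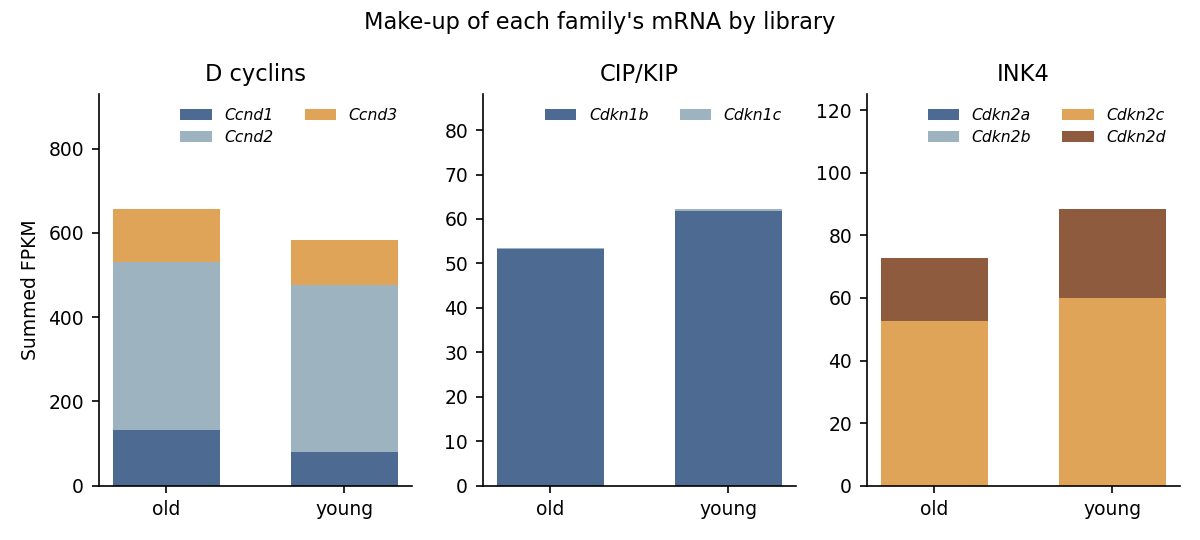
Summed FPKM of the D cyclins, the CIP/KIP members and the INK4 members in the old library (left bar) and the young library (right bar), divided by gene. The D cyclin sum is 657 FPKM in the old and 582 FPKM in the young library, the CIP/KIP sum 53.4 and 62.2 FPKM and the INK4 sum 72.9 and 88.4 FPKM. Cdkn2a and Cdkn2b add nothing visible. The third CIP/KIP gene, Cdkn1a (346 FPKM in the old and 382 FPKM in the young library), is outside the set and is not in the CIP/KIP sum.

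Cdk4, the catalytic partner of the D cyclins, had the highest FPKM of the 10 genes. Ccnd2 had more reads, 11799 in the old and 10584 in the young library. Cdk4 (ENSMUSG00000006728, chromosome 10, 127063534 to 127067920, plus strand) was at 472 FPKM in the old library, from 9182 reads, and 403 FPKM in the young, from 7068 reads. Its ratio was 1.17 [1.14 to 1.21] and its log2 ratio 0.23. In the young library its interval of 394 to 413 FPKM overlapped that of Ccnd2 (388 to 403 FPKM), and in the old library it lay above it (463 to 482 against 390 to 405 FPKM). At its end Cdk4 overlaps Tspan31, a tetraspanin gene on the other strand, over 19.7% of its exon bases. Tspan31 was abundant, at 310 FPKM in the old and 374 FPKM in the young library, and went the other way, with a ratio of 0.828 [0.793 to 0.865]. No source used here says that strand was used in counting, so reads within the overlap cannot be assigned to one of the 2 genes.

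Cdk6, the other kinase that D cyclins activate, was at 33.7 FPKM in the old and 34.1 FPKM in the young library, a log2 ratio of −0.02. The FPKM of Cdk4 was thus 14.0 times that of Cdk6 in the old library and 11.8 times in the young. Per FPKM of both kinases together there were 1.30 FPKM of D cyclins in the old library and 1.33 FPKM in the young.

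**Figure D3:**
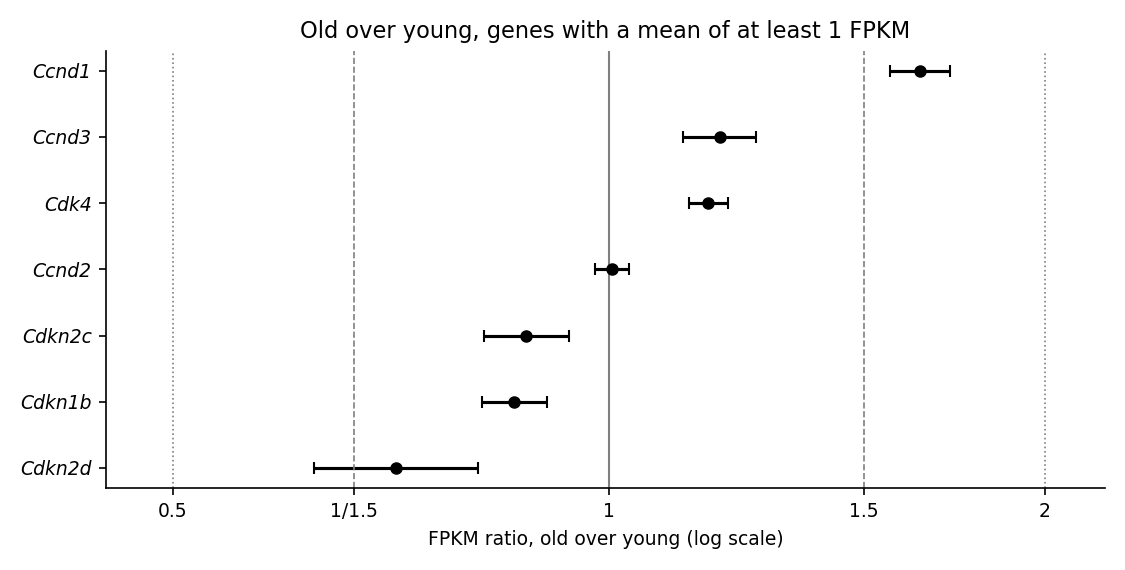
FPKM ratio of old over young on a log scale for the 7 genes that averaged 1 FPKM or more, with 95% counting intervals. The solid line is an even ratio, dashed lines are 1.5-fold and dotted lines 2-fold; Ccnd1 at 1.64 is the one gene past 1.5-fold, and Cdkn2d at 0.713 has an interval of 0.626 to 0.813 that reaches past the dashed line.

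Of the CIP/KIP members, Cdkn1b was measured well and Cdkn1c was close to absent. Cdkn1b encodes p27, which restrains the cyclin E kinase in resting cells. Cdkn1b (ENSMUSG00000003031, chromosome 6, 134920401 to 134925513, plus strand) was at 53.2 FPKM in the old library, from 2798 reads, and 61.9 FPKM in the young, from 2931 reads. Its ratio was 0.861 [0.817 to 0.907], and none of its 50-base words was found in another gene. Cdkn1c, an imprinted gene that encodes p57, had 3 reads in the old library and 7 in the young, or 0.148 and 0.383 FPKM. Its ratio of 0.386 has a counting interval of 0.0645 to 1.69 that holds both a large difference and none. Gm44732, a gene listed at 0 in both libraries, covers 30.7% of the exon bases of Cdkn1c.

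Cdkn1a, the third CIP/KIP gene and a p53 target that encodes p21, stands beside the members for scale. It was at 346 FPKM in the old and 382 FPKM in the young library, a log2 ratio of −0.14. It thus exceeded Cdkn1b by 6.49 times in the old library and 6.18 times in the young.

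Of the 4 INK4 genes 2 were expressed and 2 were listed at 0 in both libraries. Cdkn2c, which encodes p18, was at 52.5 FPKM in the old library from 1701 reads and 59.8 FPKM in the young from 1748 reads. Its ratio was 0.877 [0.820 to 0.939] (ENSMUSG00000028551, chromosome 4, 109660876 to 109667189, minus strand). The intervals of Cdkn2c and Cdkn1b overlapped in both libraries, and the 2 levels were not tested against each other. They were 50.02 to 55.0 and 51.3 to 55.3 FPKM in the old and 57.0 to 62.7 and 59.6 to 64.1 FPKM in the young.

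Cdkn2d, which encodes the INK4 protein p19, not to be confused with the ARF product of Cdkn2a, had the lowest ratio of the 7 measured genes. Cdkn2d (ENSMUSG00000096472, chromosome 9, 21288410 to 21291407, minus strand) was at 20.4 FPKM in the old library from 416 reads, against 28.6 FPKM in the young from 526 reads. The ratio was 0.713 [0.626 to 0.813] and the log2 ratio −0.47, so that 91.9% of all genes tested had a higher one. Its neighbour Kri1, which lies 0.441 kb away and acts in ribosome assembly, was at 21.9 FPKM in the old and 22.8 FPKM in the young library, a ratio of 0.959 [0.851 to 1.08].

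Cdkn2a (ENSMUSG00000044303, chromosome 4, 89274471 to 89294653, minus strand) and Cdkn2b (ENSMUSG00000073802, chromosome 4, 89306299 to 89311039, minus strand) encode p16 with ARF, and p15. Both were listed at 0 in the old and in the young library, as were 31.9% of the 21897 protein-coding genes and 59.1% of all genes in the table. A count of 3 reads, used here as a floor, is 0.189 FPKM for Cdkn2a in the old and 0.210 FPKM in the young library. For Cdkn2b it is 0.119 FPKM in the old and 0.132 FPKM in the young. The 95% counting intervals for 0 reads end somewhat higher. For Cdkn2a they end at 0.233 FPKM in the old and 0.258 FPKM in the young library, and for Cdkn2b at 0.147 and 0.162 FPKM. None of the 50-base words of either gene occurs in another gene, and no annotated exon of another gene overlaps theirs. No ratio of old over young can be given for either gene.

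All INK4 mRNA was thus from Cdkn2c and Cdkn2d, which gave 72.0% and 28.0% of the sum in the old library and 67.7% and 32.3% in the young. The INK4 sum was 72.9 FPKM in the old library against 88.4 FPKM in the young, a ratio of 0.824. There were 9.01 FPKM of D cyclins for each FPKM of INK4 in the old library and 6.59 in the young. For Cdk4 and Cdk6 together the figures were 6.94 and 4.95. These are ratios of mRNA in 1 library each, and protein or kinase activity was not measured.

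The 0 values were not restricted to the pair. Mtap, a methionine salvage enzyme made by most cells and the protein-coding neighbour of Cdkn2a on the side away from Cdkn2b at 93.4 kb, was also listed at 0 in both libraries, where 3 reads would be 0.0987 FPKM in the old and 0.109 FPKM in the young. None of its 50-base words is shared. Of a list of 27 widely expressed genes, the other 26 all averaged 1 FPKM or more; Mtap had been put on that list with its value known. Of these 26, 4 were past 1.5-fold, all higher in the old library, against 5.52% of all genes tested. The list median was 0.05. Among the 4 were the glycolysis genes Pgk1 (280 FPKM in the old and 149 FPKM in the young library) and Gapdh (85.8 and 46.1 FPKM). The rest were the transferrin receptor Tfrc (18.7 and 10.2 FPKM) and the MHC class I light chain B2m (2545 and 1533 FPKM). In the order of the annotation, 13 genes in a row were listed at 0 in both libraries, from the start of Mtap at 89137122 to 90190009. They span 1053 kb and 4 of them are protein coding, namely Mtap, Cdkn2a, Cdkn2b and Dmrta1, a transcription factor gene of restricted expression.

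Reads resumed close by on one side. Gm12602, a noncoding transcript at 8.90 kb from Mtap, had 133 reads in the old and 87 in the young library, or 12.9 and 9.36 FPKM. Further along, Klhl9, a ubiquitin ligase adaptor, was at 22.5 FPKM in the old and 27.3 FPKM in the young library, and Hacd4, an enzyme of long fatty acid synthesis, at 17.6 and 14.8 FPKM. On the other side the first gene with reads was Zfp352, 908 kb beyond Cdkn2b, with 2 reads in each library. Within 2.5 Mb of the pair 32 of 46 protein-coding genes, or 69.6%, were listed at 0, against 31.9% of all protein-coding genes. These 32 include most of the type I interferon cluster, and 6 of the 46 averaged 1 FPKM or more. Only mRNA was measured, and why these genes were at 0 was not tested. The labels call the cells primary. Mtap, made by most cells, was at 0 beside Cdkn2a and Cdkn2b in both libraries, and whether the label holds was not tested. The 0 values are therefore those of these 2 libraries and are not given as the state of osteoblasts at either age.

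**Figure D4:**
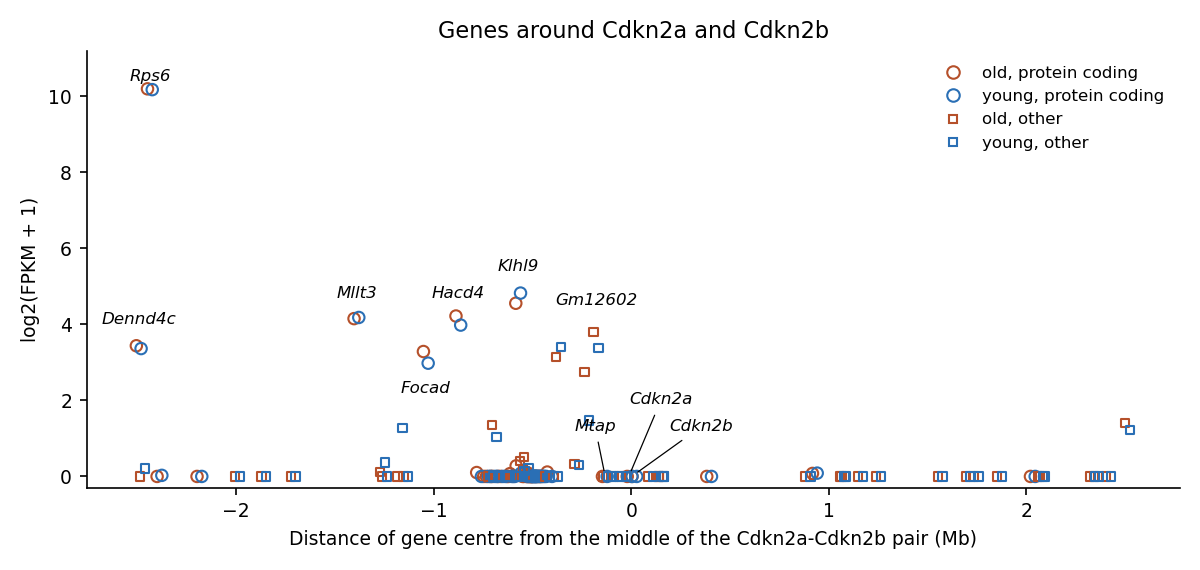
log2(FPKM + 1) of every annotated gene within 2.5 Mb of Cdkn2a and Cdkn2b, against the distance of its centre from the middle of the pair, in the old library (drawn slightly to the left) and the young library. Circles are protein-coding genes and squares all others. Mtap, Cdkn2a and Cdkn2b sit at 0 in both libraries, while Klhl9, Hacd4, Focad, Mllt3, Dennd4c and Rps6, all on one side, have reads in both.

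The protein-coding neighbours of the other members were all within 1.5-fold where they averaged 1 FPKM or more, as were 90.0% of all genes tested. Intervals that exclude an even ratio were those of Tpcn2, Agap2 and Parp11, which were higher in the old library, and of Tigar and Med20, which were lower. Beside Ccnd1, Fgf15 was listed at 0 in both libraries, and Tpcn2, an ion channel of lysosomes, was at 11.1 FPKM in the old and 8.42 FPKM in the young library, a ratio of 1.32 [1.13 to 1.54]. Beside Ccnd2, Tigar had a ratio of 0.794 [0.636 to 0.991] and Parp11 one of 1.16 [1.04 to 1.28]. Faf1 next to Cdkn2c and Taf8 next to Ccnd3 had ratios of 1.05 [0.951 to 1.16] and 1.02 [0.901 to 1.15], and Med20, on the other side of Ccnd3, one of 0.846 [0.748 to 0.956]. Gpr19 beside Cdkn1b had 0.874 [0.696 to 1.10]. Next to Cdk4 lay March9 at 1.01 [0.896 to 1.15] and Agap2 at 1.29 [1.08 to 1.55]. The neighbours of Cdkn1c were at or near 0 as well, with Kcnq1 listed at 0 in both libraries and Slc22a18 listed at 0 in the old and at 0.05 FPKM in the young. The same holds for Ap1m2 beside Cdkn2d (0.03 FPKM in the old, listed at 0 in the young) and 4930522H14Rik beside Cdkn2c, listed at 0 in both. Apold1 beside Cdkn1b was low but detected, at 0.495 FPKM from 32 reads in the old and 0.446 FPKM from 26 reads in the young library.

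The genes around cyclin D and Cdk4 were read from lists of the pathway. Of 14 other cyclins, kinases and their activators none differed by 1.5-fold, against 9.98% of all genes tested. With so few genes, a list with none past 1.5-fold is not set apart from that share. The median log2 ratio of the 14 was −0.07, as over all genes. The largest differences were in Cdc25c, a phosphatase that starts mitosis (16.1 FPKM in the old and 20.8 FPKM in the young library), and in the mitotic cyclins Ccnb1 (33.1 and 41.1 FPKM) and Ccnb2 (38.6 and 31.2 FPKM), which went opposite ways. Cdk2, the kinase that p27 restrains, was at 35.2 FPKM in the old and 42.9 FPKM in the young library.

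Among the 13 pocket proteins and E2F factors, which act downstream of cyclin D and Cdk4, none differed by 1.5-fold, against 9.98% of all genes tested. The list median was −0.07. Rb1, the retinoblastoma gene, was level at 24.7 FPKM in the old and 24.95 FPKM in the young library. Its relatives Rbl1 (15.5 and 20.8 FPKM) and Rbl2 (24.9 and 28.7 FPKM) had log2 ratios of −0.40 and −0.20. The repressive factors E2f7 and E2f8 had −0.48 and −0.28, and Tfdp1, a DNA-binding partner of many E2F factors, had 0.21.

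The medians of the S-phase and mitosis lists lay on opposite sides of 0, and both lists were chosen with earlier results of these data known. Of 19 S-phase genes 14 had log2 ratios above 0 with a median of 0.35, led by Orc1 of the origin recognition complex (10.7 FPKM in the old and 7.07 FPKM in the young library), the replicative helicase genes Mcm7 (111 and 80.9 FPKM) and Mcm6 (75.2 and 55.0 FPKM), and thymidine kinase Tk1 (64.1 and 47.1 FPKM). Of 17 mitosis genes 14 were below 0 with a median of −0.19, led by the centromere genes Cenpf (36.8 and 49.4 FPKM) and Cenpe (81.9 and 98.9 FPKM) and the spindle genes Kif23 (50.6 and 61.7 FPKM) and Prc1 (64.4 and 77.5 FPKM). On the FPKM + 1 scale no gene of either list passed 1.5-fold, against 9.98% of all genes tested. The FPKM ratio of Orc1 itself was 1.51. Over all genes tested, 5078 of 12561 lay above 0.

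Turnover of D cyclins and p27 is run by ubiquitin ligases and their cofactors. None of 15 such genes differed by 1.5-fold (list median −0.09), against 9.98% of all genes tested. Ddb1, an adaptor of the ligase that removes D cyclins, was at 576 FPKM in the old and 427 FPKM in the young library. The small heat shock protein Cryab, which helps to mark cyclin D1 for removal, was at 105 and 78.6 FPKM. Ubac1, part of a ligase for p27, was at 66.3 FPKM in the old and 88.2 FPKM in the young library, and Rbx1, the RING subunit of many such ligases, at 58.1 and 74.0 FPKM.

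Transcription regulators of the D cyclin and INK4 genes numbered 19, of which 2 were lower by 1.5-fold and none higher, with a median of −0.12. Over all genes tested, 4.47% were lower and 5.52% higher by 1.5-fold. The 2 were Junb, an AP-1 factor that represses Ccnd1 and activates Cdkn2a in mouse cells (196 FPKM in the old and 310 FPKM in the young library), and Id1, an antagonist of the factors that activate Cdkn2a (29.4 and 44.7 FPKM). Myc was at 56.6 FPKM in the old and 81.8 FPKM in the young library, and Mxd4, a repressor of the same E-box binding family, was at 107 and 156 FPKM.

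In the ARF and p53 arm none of 8 genes differed by 1.5-fold, against 9.98% of all genes tested, and the list median was −0.11. Twist1 and Dmtf1, which repress and activate ARF transcription, were at 33.3 and 23.4 FPKM in the old library and 41.9 and 27.7 FPKM in the young. Trp53, the p53 gene, was at 103 FPKM in the old and 91.4 FPKM in the young library, and Mdm2, the ligase that ARF holds back, at 143 and 135 FPKM.

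**Figure D5:**
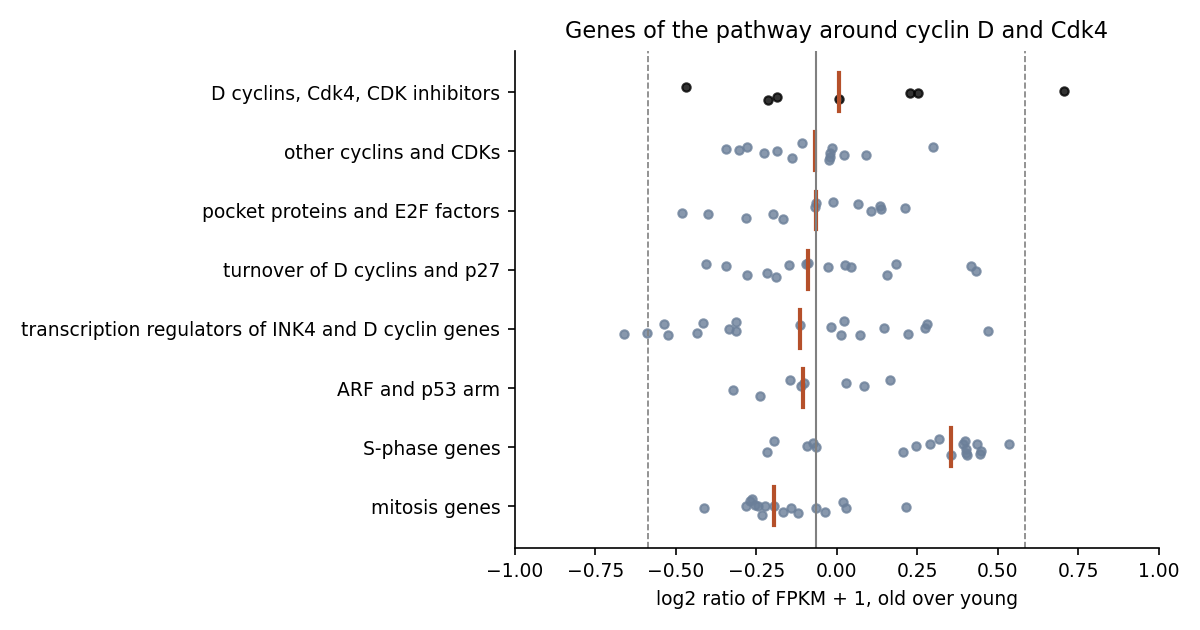
log2 ratio of FPKM + 1, old over young, of each gene that averaged 1 FPKM or more, by list, with points spread vertically for sight only. The lists were chosen with earlier results of these data known. Coloured bars are list medians, the grey line is the median of all genes tested (−0.07) and dashed lines mark 1.5-fold; S-phase genes lie mostly right of the grey line (median 0.35) and mitosis genes mostly left (median −0.19).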

How the data were processed

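The authors deposited 1 table of FPKM values, 1 column per library, and made these values themselves. Tools named, per the submitters' processing notes, were STAR, fastp, edgeR and HTSeq, with build mm10. Their roles and versions, the annotation release and strandedness were not given in the sources used here. GENCODE M21 (GRCm38) gave symbols, positions and lengths.

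The members and lists were chosen with earlier results of these data known. Reads were worked out with the rounded mean transcript length of each gene; 97.6% of values above 0 in each library came out whole within 0.01 reads. Intervals and the floor of 3 reads cover counting error only, since PCR copies are not independent molecules. Ratios used a pseudocount of 1 FPKM and genes averaging 1 FPKM or more; calls were at 2-fold and 1.5-fold. No test was run. Named were all members, the direct partners, the neighbours, and the 4 list genes with the largest log2 ratios in either direction. Shared sequence was sought as 50-base words every 25 bases. Alternatives were other pseudocounts, filters, scalings and a smaller interval around Cdkn2a. Steps were tested on simulated data. Python 3.11.15, pandas 2.3.3 and scipy 1.17.1 were used.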

Additional observations from a re-analysis of the deposited data

How the results depend on the processing

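Among the members past each filter none passed 2-fold and Ccnd1 alone passed 1.5-fold under all 7 alternatives. Of the 8 members with reads, each kept the sign of its log2 ratio under the 5 alternatives of pseudocount and scaling, Ccnd1 between 0.68 and 0.77, Cdkn2d between −0.49 and −0.40, and Ccnd2 between 0.00073 and 0.07. Cdkn1c, on 3 reads in the old and 7 in the young library and below the filter, ranged from −0.96 at a pseudocount of 0.1 FPKM, past 1.5-fold, to −0.06. The median of the members was −0.089 with no filter, where Cdkn1c enters, and 0.073 when centred on the median of all genes. Genes past 2-fold numbered 357 of 12561, against 644 at a pseudocount of 0.1 FPKM and 121 at a pseudocount of 5 FPKM, from the same 12561. Among the 8264 genes averaging 10 FPKM or more they numbered 133. Of the 357, 248 were higher in the old library, against 408, 101 and 106 under these alternatives in turn. Within 1 Mb of Cdkn2a and Cdkn2b, 30 of 40 protein-coding genes, or 75.0%, were listed at 0, against 31.9% of all protein-coding genes. No paired analysis was possible because each group has 1 library. Depth limits the ratio of Cdkn1c; why Cdkn2a and Cdkn2b were at 0 was not tested.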
